A study of Mus musculus with 6 samples.

Results

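Endothelial transcripts are described here in neutrophils sorted from the tumour-bearing mouse uterus, through 10 genes of 43432 listed per library: the junction genes Cdh5, Cldn5 and Esam, the receptor genes Kdr and Tek, the secreted proteins Vwf and Egfl7, and the surface and caveola genes Plvap, Emcn and Cav1. The rows were taken by Ensembl ID from 6 raw count tables, with symbols from GENCODE M21, and each symbol matched 1 row. The hyperoxia group, 3 libraries, came from mice kept for 10 days, from postnatal day 18 to 28, in a chamber at 60% oxygen. The normoxia group, also 3 libraries, came from mice left in ambient oxygen. All mice were C57BL/6, 4 weeks old and of the PRPL line, a cre-lox model in which Cre is made from the progesterone receptor gene (Pgrcre/+) and so acts in cells that express that receptor. Both groups carry the same alleles, and no wild-type group was analysed here. Cells were gated as CD45+, CD11b+ and Ly6G high from enzymatically digested uteri, a gate that endothelial cells, which lack CD45 and Ly6G, should not enter. The genes were chosen because endothelial markers were already known to differ between these groups, so their hyperoxia and normoxia values are given as a description. Where calls from tests across all genes are printed for them, they stand beside the share of all genes called and support nothing.

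Endothelial cells line every vessel and hold together through adherens junctions of VE-cadherin (Cdh5) and tight junctions of claudin-5 (Cldn5). Vascular endothelial growth factor acts on them through the receptor tyrosine kinase VEGFR2 (Kdr), and angiopoietins act through TIE2 (Tek). In the growing or tumour-bearing uterus vessels sprout and remodel under these pathways, and neutrophils cross the endothelium to reach the tissue.

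Libraries held 38683293 to 61715617 counts. A floor of 3 counts lay between 0.0486 and 0.0776 CPM (counts per 1000000 counts of a library), and this floor covers counting error only, since PCR copies are not independent molecules. Markers of the sorted cell type were abundant in all 6 libraries: the calprotectin gene S100a8 stood at 21400, 46500 and 14000 CPM in hyperoxia and at 20700, 14700 and 17000 CPM in normoxia. Ly6g, the gene of the sorted antigen, stood at 176, 363 and 41.2 CPM in hyperoxia and at 139, 56.7 and 73.2 CPM in normoxia. In bulk samples, fewer cells of a type and less RNA per cell cannot be told apart. The labels do not state that libraries came from separate mice, so the spread between them may be technical in part.

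The summed level of the 10 endothelial genes was 14.8, 80.8 and 60.1 CPM in the hyperoxia libraries, against 2.90, 5.20 and 9.51 CPM in the normoxia libraries. Every hyperoxia library stood above every normoxia library, by 1.55-fold between the lowest hyperoxia and the highest normoxia library and by 8.84-fold between the means. In counts this was 652, 4989 and 2692 reads in hyperoxia and 130, 221 and 368 reads in normoxia. The endothelial genes thus held 0.00148% to 0.00808% of a hyperoxia library and 0.00029% to 0.000951% of a normoxia library. All 10 genes had log2 differences above 0, as 53.7% of all genes tested did, and 8 exceeded 2, as 2.71% of all genes tested did. Their median log2 difference was 3.39, beside 0.04 over the 12908 genes tested.

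For 8 of the 10 genes every hyperoxia library lay above every normoxia library, where 8.1% of all genes tested did so and 9.81% showed the opposite order. Kdr and Vwf were the exceptions. In edgeR's quasi-likelihood test with Benjamini-Hochberg adjustment over all genes, 0 of the 10 passed 0.05, as did 0% of all genes, and 8 were under an unadjusted p of 0.05, as were 9.1% of all genes in that direction and 3.91% in the other. DESeq2 called 8 of the 10, where it called 3.57% of all genes as higher and 0.403% as lower. Tek and Cav1 were called by limma-voom with sample quality weights, which called 0.271% of all genes as higher, and by edgeR with no filter on low counts, which called 0.886%. Nothing is read from these shares, since the genes were picked from this contrast. All 10 genes passed the filter on low counts. All 10 reached 10 counts in every hyperoxia library, and 4 did so in every normoxia library, so a gene could pass through the hyperoxia libraries alone.

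**Figure D1:**
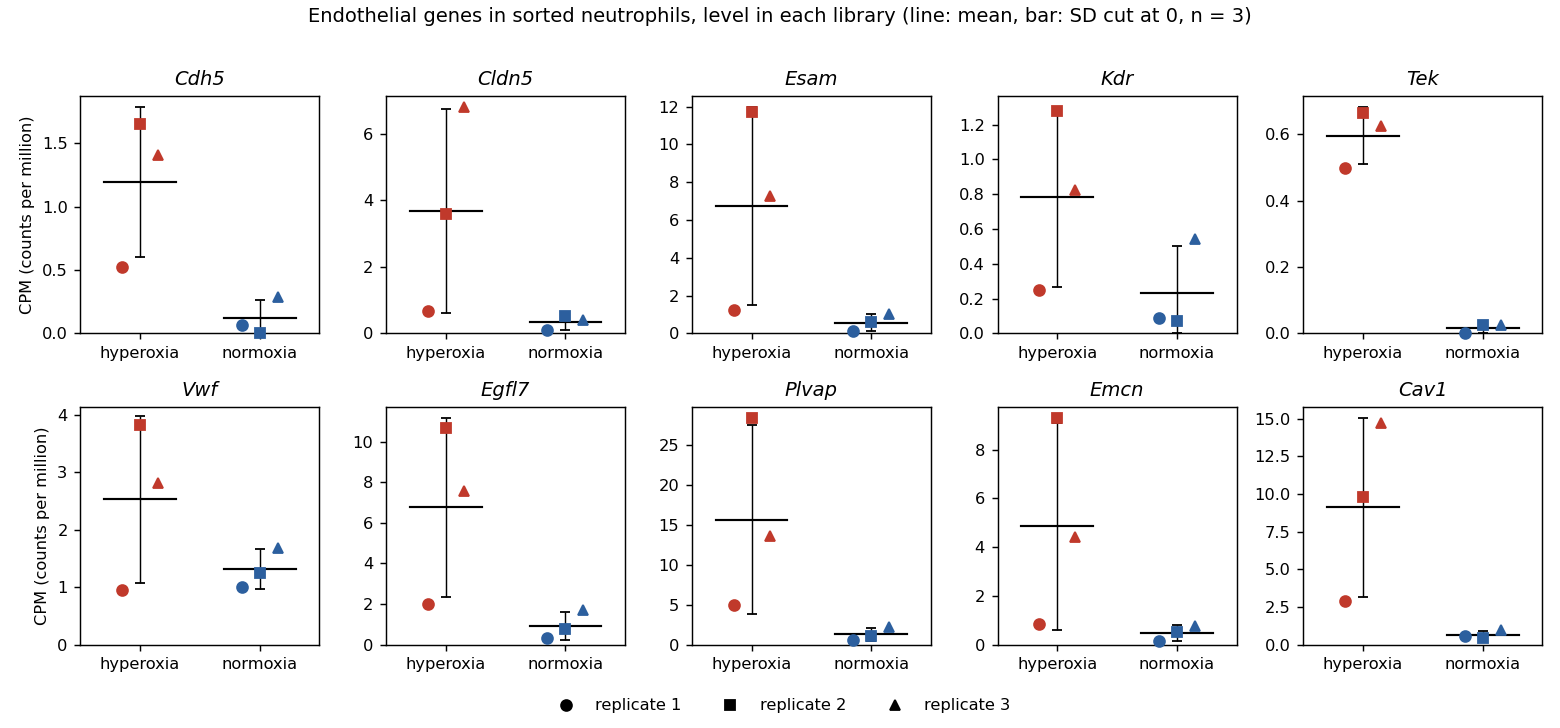
Level of each of the 10 endothelial genes in CPM (linear axes from 0), hyperoxia left and normoxia right, 1 symbol per replicate, with the mean (line) and SD (bar, n = 3). Hyperoxia replicate 1 was the lowest of its group for all 10 genes, and the groups overlapped for Kdr and Vwf.

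The promoter sequences of these genes were compared for short motifs. RefSeq (GRCm38.p6) gave windows of 300 bases, from 250 before to 50 after the start, for 6 of the 10 genes. The core of binding sites for ETS factors, a family that includes regulators of many endothelial genes, was searched as the 6 letters CAGGAA or CCGGAA on both strands. The 6 genes have 9 windows, since Egfl7 has 3 and Cav1 has 2. CAGGAA was found in 4 of the 9 windows, those of Emcn, Tek and 2 of Egfl7, and in 30.6% of all 32851 windows. CCGGAA was found in 1 of the 9, that of Kdr, and in 14.9% of all windows. Neither was found in the Cldn5 and Cav1 windows, from which nothing follows about the factors. The windows of Tek (chr4:94739039-94739338, plus strand), Emcn (chr3:137340828-137341127, plus strand) and Kdr (chr5:75978406-75978705, minus strand) are shown because they hold these letters, with the matches on either strand in capitals:
Tek: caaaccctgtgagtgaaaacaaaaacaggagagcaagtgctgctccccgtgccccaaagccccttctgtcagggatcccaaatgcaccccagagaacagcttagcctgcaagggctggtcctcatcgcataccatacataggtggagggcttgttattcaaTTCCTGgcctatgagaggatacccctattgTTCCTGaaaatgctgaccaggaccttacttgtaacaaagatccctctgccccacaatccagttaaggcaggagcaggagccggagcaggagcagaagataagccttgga
Emcn: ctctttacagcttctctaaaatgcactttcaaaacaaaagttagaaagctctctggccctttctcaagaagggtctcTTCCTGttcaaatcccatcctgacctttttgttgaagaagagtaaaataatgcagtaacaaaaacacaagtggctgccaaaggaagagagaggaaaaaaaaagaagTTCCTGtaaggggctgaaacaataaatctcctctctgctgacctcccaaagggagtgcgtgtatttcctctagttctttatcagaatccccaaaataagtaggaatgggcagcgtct
Kdr: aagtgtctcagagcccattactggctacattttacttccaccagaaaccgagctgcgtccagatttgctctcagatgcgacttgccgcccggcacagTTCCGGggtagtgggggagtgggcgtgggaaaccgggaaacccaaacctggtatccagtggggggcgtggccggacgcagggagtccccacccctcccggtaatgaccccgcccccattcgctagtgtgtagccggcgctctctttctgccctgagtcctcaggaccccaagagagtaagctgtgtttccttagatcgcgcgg

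Each of the other motifs, also searched on both strands, was found in 1 or 2 of the 9 windows. The GATA letters AGATAA were found in Tek, at position 37 after the start, and 11.2% of all windows hold them. The SOX-like letters ATTGTT were found in Tek and Emcn, against 10.7% of all windows, and in Tek they overlap a CAGGAA match by 2 letters. The TATA letters TATAAA were found in 1 of the 2 Cav1 windows, against 13.6% of all windows. That match lies on the reverse strand, at position -221 from the start.

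Among the junction genes, Cdh5 encodes VE-cadherin, the adhesion molecule of endothelial adherens junctions (ENSMUSG00000031871, chromosome 8, 104101625 to 104144511 in GRCm38, plus strand). It stood at 0.521, 1.65 and 1.41 CPM in hyperoxia, from 23, 102 and 63 counts, and at 0.0669, 0 and 0.284 CPM in normoxia, from 3, 0 and 11 counts. The groups did not overlap, and normoxia replicate 2 held no Cdh5 read, which at the floor of 3 counts allows up to 0.0706 CPM. The log2 difference was 3.33 ± 0.96 (SE), with 2.72 without normoxia replicate 2 and 5.03 without normoxia replicate 3.

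Cldn5 encodes claudin-5, the sealing protein of endothelial tight junctions, from a single exon (ENSMUSG00000041378, chromosome 16, 18776847 to 18778262, plus strand). Its level was 0.679, 3.58 and 6.81 CPM in hyperoxia and 0.0891, 0.518 and 0.388 CPM in normoxia. The lowest hyperoxia library lay close above the highest normoxia library, and hyperoxia replicate 3 held the highest value. The log2 difference was 3.45 ± 0.83 (SE), and 2.71 without hyperoxia replicate 3.

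Esam, an immunoglobulin-type adhesion molecule of endothelial junctions and platelets (ENSMUSG00000001946, chromosome 9, 37528078 to 37538319, plus strand), stood at 1.22, 11.7 and 7.28 CPM in hyperoxia and at 0.111, 0.589 and 1.01 CPM in normoxia. Again the groups did not overlap, and hyperoxia replicate 1 stood near normoxia replicate 3. Its log2 difference was 3.55 ± 0.87 (SE), with 2.90 without hyperoxia replicate 2 and 4.32 without normoxia replicate 3.

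Of the receptors, Kdr was the member with the least reads per exon length in hyperoxia. Kdr encodes VEGFR2, the main signalling receptor for VEGF-A on endothelium (ENSMUSG00000062960, chromosome 5, 75932827 to 75978458, minus strand). It stood at 0.249, 1.28 and 0.826 CPM in hyperoxia, from 11, 79 and 37 counts, and at 0.0891, 0.0706 and 0.543 CPM in normoxia, from 4, 3 and 21 counts. Normoxia replicate 3 lay above hyperoxia replicate 1, so the groups overlapped. The log2 difference was 1.74 ± 0.87 (SE), and it ran from 1.22 without hyperoxia replicate 2 to 3.28 without normoxia replicate 3.

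Tek encodes TIE2, the angiopoietin receptor that keeps vessels quiescent when bound by angiopoietin-1 (ENSMUSG00000006386, chromosome 4, 94739289 to 94874976, plus strand). It stood at 0.498, 0.664 and 0.625 CPM in hyperoxia, from 22, 41 and 28 counts. Normoxia libraries held 0, 1 and 1 Tek counts, all under the floor of 3. Over the pooled counts, 91 in hyperoxia and 2 in normoxia, the ratio was 38.1 (95% exact Clopper-Pearson interval 10.2 to 319, counting error only), a description of these reads and no test of the groups.

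Tek was also the most even of the 10 genes within hyperoxia. Its highest and lowest hyperoxia libraries differed 1.33-fold. The same range was 3.17-fold for Cdh5 and 11.1-fold for Emcn, with the other 7 genes between these.

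The secreted proteins differed from each other. Vwf encodes von Willebrand factor, the platelet-tethering protein that endothelial cells keep in Weibel-Palade bodies and that megakaryocytes make as well (ENSMUSG00000001930, chromosome 6, 125546774 to 125686679, plus strand). It stood at 0.951, 3.82 and 2.81 CPM in hyperoxia and at 1.0, 1.25 and 1.68 CPM in normoxia. Hyperoxia replicate 1 stood below all 3 normoxia libraries, which held for none of the other 9 genes. That order rests on 42 counts against 45 in normoxia replicate 1, scaled by library totals alone. The TMM factors were 0.895 for hyperoxia replicate 1 and 0.952 for normoxia replicate 1. TMM scaling thus raises the hyperoxia value more, and the order need not hold under it. The log2 difference was 0.93 ± 0.47 (SE), the smallest of the 10, and 0.54 without hyperoxia replicate 2.

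Platelet and megakaryocyte markers were therefore read beside Vwf. Their summed level was 2.72, 7.53 and 11.3 CPM in hyperoxia and 2.70, 11.4 and 4.45 CPM in normoxia, with 11 of 12 genes at a count in at least 1 library and the collagen receptor gene Gp6 at 0 in all 6. Pf4, the platelet chemokine gene with the highest level of the list, stood at 0.974, 4.84 and 8.33 CPM in hyperoxia and at 1.34, 1.25 and 1.65 CPM in normoxia, a log2 difference of 1.69 ± 0.61 (SE). The platelet chemokine gene Ppbp, with a log2 difference of -2.23, stood at 7.27 CPM in normoxia replicate 2 and at 0.178 to 0.883 CPM in the other 5 libraries. The sum and both genes overlapped between groups, and their part in the Vwf reads was not tested.

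Egfl7 encodes a secreted protein of the vessel wall (ENSMUSG00000026921, chromosome 2, 26580014 to 26593120, plus strand). It stood at 1.99, 10.7 and 7.59 CPM in hyperoxia and at 0.334, 0.753 and 1.68 CPM in normoxia, with no overlap of the groups. Its log2 difference was 2.86 ± 0.69 (SE), with 2.39 without hyperoxia replicate 2 and 3.68 without normoxia replicate 3. Of its 3581 exon bases, 64 overlap the abundant gene Agpat2 on the opposite strand, and reads there cannot be told apart without a strand setting. Agpat2 had 1112, 4982 and 1536 counts in hyperoxia and 1878, 1841 and 1678 in normoxia; its part in the Egfl7 reads was not tested.

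The Egfl7 locus also holds the endothelial microRNA miR-126. Its mature 3p strand (RefSeq, chr2:26591402-26591423, plus strand) is shown to mark what the Egfl7 reads do not measure, with the seed, bases 2 to 8, in capitals:
mmu-miR-126a-3p: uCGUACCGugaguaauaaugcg
The row of Mir126a held 0 counts in all 6 libraries, so the data say nothing on this microRNA.

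Plvap had the highest level of the 10 per exon length as well as in CPM, in the mean of hyperoxia. It encodes the protein of endothelial diaphragms over fenestrae and caveolae (ENSMUSG00000034845, chromosome 8, 71497765 to 71511752, minus strand). Plvap stood at 4.94, 28.4 and 13.6 CPM in hyperoxia and at 0.513, 1.08 and 2.20 CPM in normoxia. The lowest hyperoxia library was above the highest normoxia library, and the log2 difference was 3.62 ± 0.68 (SE). It was 2.90 without hyperoxia replicate 2 and 4.35 without normoxia replicate 3.

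Emcn, the sialomucin endomucin of capillaries and veins (ENSMUSG00000054690, chromosome 3, 137341067 to 137432185, plus strand), stood at 0.838, 9.30 and 4.42 CPM in hyperoxia and at 0.134, 0.518 and 0.776 CPM in normoxia. Hyperoxia replicate 1 lay only just above normoxia replicate 3. The log2 difference of 3.34 ± 0.85 (SE) was 2.47 without hyperoxia replicate 2 and 3.95 without normoxia replicate 3.

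Cav1 encodes caveolin-1, the coat protein of caveolae, which is abundant in endothelium and also made by fibroblasts and smooth muscle (ENSMUSG00000007655, chromosome 6, 17306335 to 17341452, plus strand). It stood at 2.88, 9.77 and 14.7 CPM in hyperoxia and at 0.557, 0.400 and 0.931 CPM in normoxia. The lowest hyperoxia library stood above the highest normoxia library, and the log2 difference was 3.82 ± 0.59 (SE).

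Set against each other per exon length, in CPM per kilobase of exon (RPKM), the 10 genes spanned a wide range. In hyperoxia the means were 7.88 ± 5.98 for Plvap, 2.65 ± 1.73 for Cav1, 2.61 ± 2.16 for Cldn5, 2.34 ± 1.83 for Esam and 1.89 ± 1.23 for Egfl7 (SD, n = 3 each). Below them came Emcn at 0.897 ± 0.785, Cdh5 at 0.284 ± 0.142, Vwf at 0.157 ± 0.0907, Tek at 0.126 ± 0.0184 and Kdr at 0.0869 ± 0.0572 RPKM (SD, n = 3 each). The ranges of mean ± SD overlapped for all 9 pairs of neighbours in this order. Within libraries, Plvap was the highest of the 10 in 6 of 6, Egfl7 exceeded Emcn in 6 of 6, and Emcn exceeded Cdh5 in 6 of 6, while Cav1 exceeded Cldn5 in 3 of 6 and Tek exceeded Kdr in 2 of 6. In hyperoxia 79.5% of tested genes had a lower RPKM than Plvap and 6.87% a lower one than Kdr; in normoxia these shares were 40.3% and 1.76%.

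The makeup of the endothelial signal can be read as each gene's share of the summed RPKM. Plvap took 47.3%, 48.7% and 31.0% in hyperoxia and 35.4%, 33.5% and 38.8% in normoxia, the largest share in every library. Egfl7 took 9.57% to 10.6% in hyperoxia and 12.8% to 16.5% in normoxia. Vwf took 0.791% to 1.13% in hyperoxia and 3.67% to 8.58% in normoxia, so its share was lower in every hyperoxia library. Cldn5 was uneven within both groups, with 21.7% in hyperoxia replicate 3 and 22.5% in normoxia replicate 2 but 8.62% to 9.60% in the other 4 libraries.

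**Figure D2:**
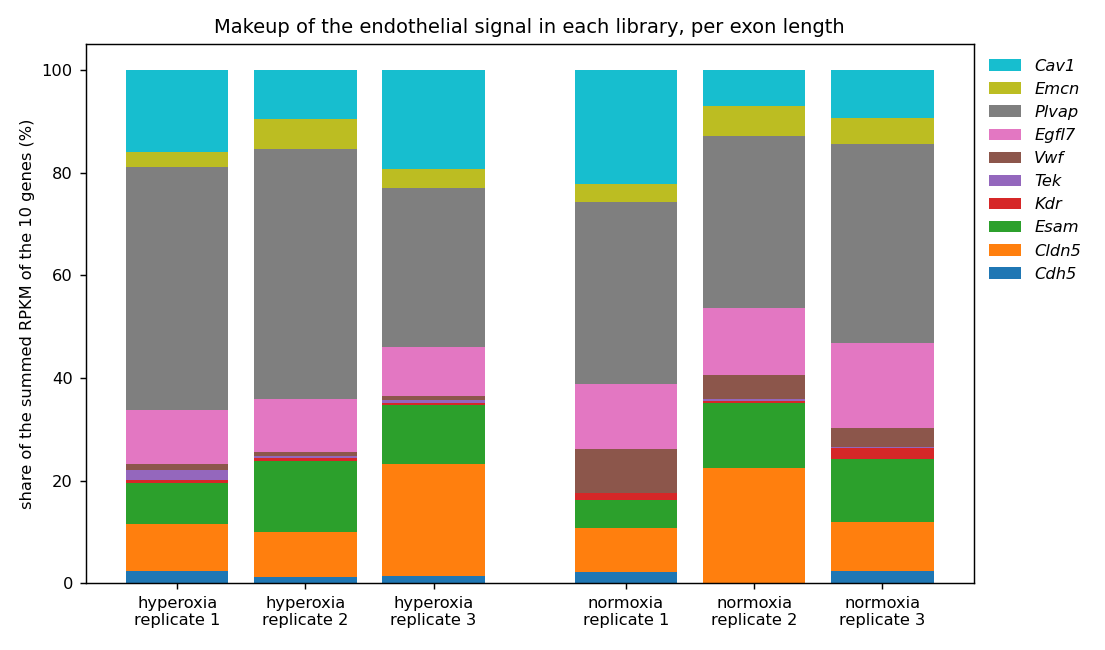
Share of each of the 10 genes in their summed RPKM (CPM per kilobase of exon), in percent, stacked per library with the 3 hyperoxia libraries left and the 3 normoxia libraries right. Plvap took the largest share in all 6 libraries, and Vwf a larger share in normoxia than in hyperoxia.

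Libraries ranked alike across genes. Hyperoxia replicate 1 had the lowest hyperoxia level for 10 of 10 genes, and hyperoxia replicate 2 the highest for 8, with replicate 3 highest for Cldn5 and Cav1. Normoxia replicate 3 had the highest normoxia level for 9 of 10, and Cldn5 was highest in normoxia replicate 2. Without hyperoxia replicate 1, the edgeR test called 3 of the 10 (Cldn5, Plvap and Cav1), where it called 1.21% of all genes as higher. Without any other single library it called 0% of all genes as higher. Nothing is read from the 3 calls, since the library left out was the lowest of its group for all 10 genes.

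Of 28 further endothelial genes 25 passed the filter on low counts and 24 of these had log2 differences above 0, as 53.7% of all genes tested did. Their median log2 difference was 1.99, and 12 of the 25 exceeded 2, as 2.71% of all genes tested did. In edgeR 0 of the 25 passed an adjusted p of 0.05. Under an unadjusted p of 0.05 were 16, all of them higher, as were 9.1% of all genes tested, and DESeq2 called 11, against 3.57% of all genes as higher. Every hyperoxia library stood above every normoxia library for 9 of the 25, against 8.1% of all genes. Without hyperoxia replicate 1, edgeR called 4 (Eng, Ecscr, Cd34 and Tmem100), where it called 1.21% of all genes as higher. From these shares nothing is read, since the list was chosen with earlier results of these data known. Tie1, which DESeq2 called, had 0, 12 and 1 counts in normoxia, so here too a gene could pass the filter through the hyperoxia libraries alone.

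Tmem100, Eng and Cd34 were the 3 genes of this list with the lowest p in edgeR. Eng encodes endoglin, a co-receptor for TGF-beta family ligands on endothelium, and stood at 1.95, 8.31 and 5.36 CPM in hyperoxia and at 0.958, 0.753 and 1.11 CPM in normoxia. Its log2 difference was 2.44 ± 0.49 (SE; adjusted p = 0.126 in edgeR). Cd34, a sialomucin of endothelium and of blood progenitors, stood at 0.997, 9.59 and 5.71 CPM in hyperoxia and at 0.357, 0.777 and 0.620 CPM in normoxia, a log2 difference of 3.19 ± 0.71 (SE; adjusted p = 0.142 in edgeR). Tmem100, a membrane protein of arterial endothelium, stood at 0.883, 2.90 and 2.70 CPM in hyperoxia and at 0.156, 0.259 and 0.465 CPM in normoxia. All 3 showed groups that did not overlap, from which nothing follows, since they were picked by their p in this same contrast.

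The 3 most abundant genes of the list had smaller log2 differences than these. Rasip1, a Ras-interacting protein needed for vessel lumens, had the highest level of the list, at 42.6, 18.9 and 60.7 CPM in hyperoxia and 37.6, 41.8 and 40.6 CPM in normoxia, and its log2 difference was 0.05 ± 0.37 (SE). Pecam1, the adhesion molecule CD31 that neutrophils carry as well, stood at 14.6, 9.90 and 11.2 CPM in hyperoxia and at 7.22, 8.43 and 8.4 CPM in normoxia, a log2 difference of 0.61 ± 0.25 (SE; adjusted p = 0.361 in edgeR). Sox17, a transcription factor of arterial endothelium that uterine epithelium makes too, stood at 11.8, 5.83 and 26.6 CPM in hyperoxia and at 4.77, 4.07 and 8.58 CPM in normoxia, with overlapping groups. Summed over the 28 genes the level was 102, 121 and 173 CPM in hyperoxia and 70.6, 76.9 and 86.5 CPM in normoxia.

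**Figure D3:**
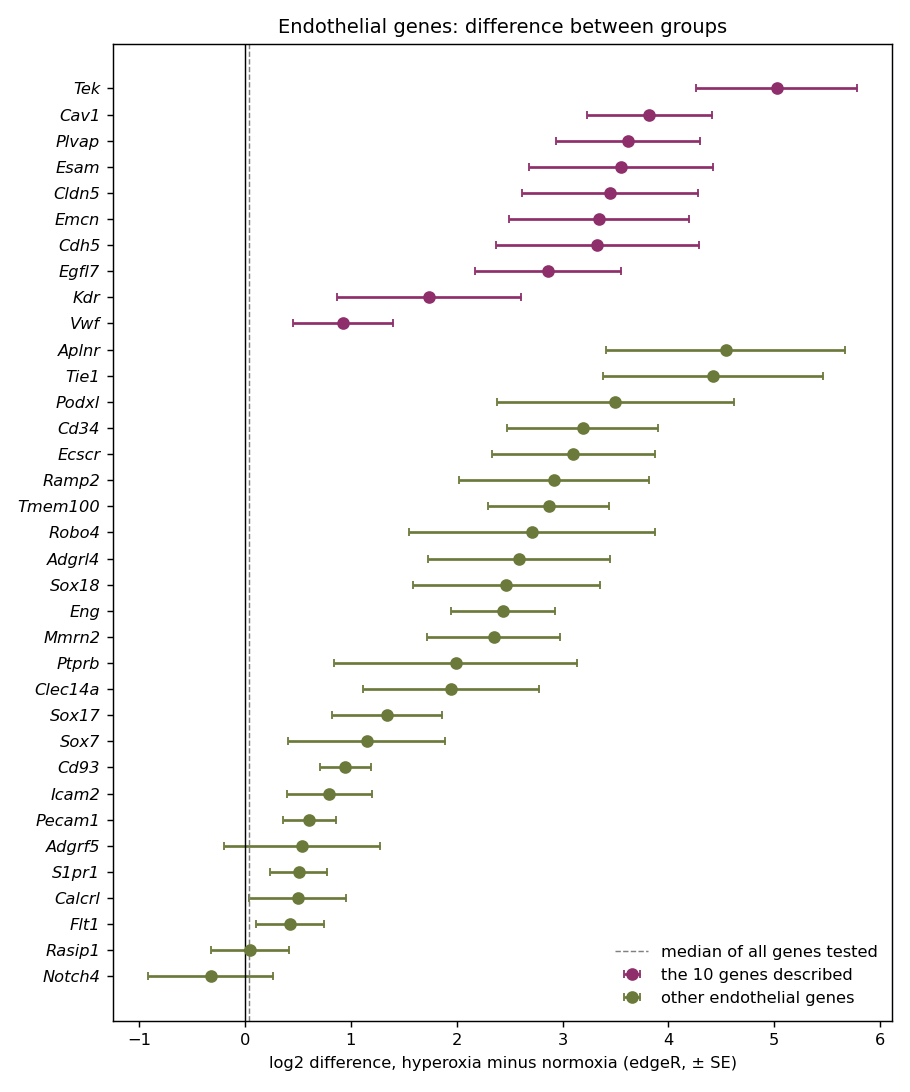
Log2 difference, hyperoxia minus normoxia, from edgeR for the 10 endothelial genes (upper group) and the 25 further endothelial genes tested (lower group), as points with bars of ± SE and a dashed line at the median of all genes tested. The values of the 10 run from 0.93 for Vwf to 5.02 for Tek, and that of Tek rests on 2 counts in all of normoxia.

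Of the other receptors of the VEGF and angiopoietin pathway, 6 of 6 were tested and 5 had log2 differences above 0, as 53.7% of all genes tested did. DESeq2 called 2, Nrp1 and Tie1, where it called 3.57% of all genes as higher. Tie1, the partner of TIE2, stood at 0.657, 3.56 and 2.52 CPM in hyperoxia and at 0, 0.282 and 0.0259 CPM in normoxia. Nrp1, a VEGF co-receptor found on many cell types, stood at 2.94, 7.36 and 5.85 CPM in hyperoxia and at 1.11, 1.95 and 1.60 CPM in normoxia, a log2 difference of 1.79 ± 0.36 (SE; adjusted p = 0.128 in edgeR). Both had groups that did not overlap. Flt1, VEGFR1, stood at 2.42, 3.53 and 3.82 CPM in hyperoxia and at 1.74, 2.28 and 3.28 CPM in normoxia, and its groups overlapped.

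Among the ligands of these receptors, 5 of 7 were tested. edgeR called 0 of the 5, as it called 0% of all genes. DESeq2 also called 0, where it called 3.57% of all genes as higher and 0.403% as lower, but it gave Vegfc no adjusted p. Vegfb, higher in hyperoxia, was the 1 under an unadjusted p of 0.05 in edgeR, as were 9.1% of all genes in that direction. Vegfa, the main ligand of VEGFR2, was abundant, at 316, 219 and 270 CPM in hyperoxia and at 206, 253 and 238 CPM in normoxia, with a log2 difference of 0.25 ± 0.24 (SE; adjusted p = 0.71 in edgeR). Its groups overlapped. Angpt2, the ligand that endothelial cells release during vessel remodelling, stood at 0.612, 1.52 and 3.33 CPM in hyperoxia and at 1.14, 0.942 and 1.03 CPM in normoxia, and overlapped too.

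The partners of the junction and caveola genes can be set beside them. Of 12 intracellular and adhesion partners at junctions, all tested, 6 had log2 differences above 0, as 53.7% of all genes tested did, and their median was 0.10. DESeq2 called 1, F11r, where it called 3.57% of all genes as higher. F11r, the junctional adhesion molecule JAM-A, which leukocytes and epithelium carry as well, stood at 38.3, 107 and 47.3 CPM in hyperoxia and at 23.8, 23.8 and 20.2 CPM in normoxia. Beta-catenin (Ctnnb1), which binds cadherin tails in most cells, stood at 76.0, 52.6 and 80.1 CPM in hyperoxia and at 77.1, 91.8 and 76.7 CPM in normoxia.

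Of 6 caveola partners, all tested, 6 had log2 differences above 0, as 53.7% of all genes tested did, and their median was 1.42. DESeq2 called 3, Cav2, Cavin2 and Cavin3, where it called 3.57% of all genes as higher. Cavin2, a coat protein of caveolae, stood at 0.453, 1.77 and 4.13 CPM in hyperoxia and at 0.0223, 0.188 and 0.414 CPM in normoxia. Cav2, which forms complexes with caveolin-1, stood at 1.43, 2.79 and 4.17 CPM in hyperoxia and at 0.513, 0.895 and 0.853 CPM in normoxia, a log2 difference of 1.88 ± 0.43 (SE; adjusted p = 0.143 in edgeR). Pacsin2, a membrane-bending protein made in many cell types, stood at 23.4, 37.2 and 23.6 CPM in hyperoxia and at 29.6, 28.6 and 19.1 CPM in normoxia. The groups overlapped for Pacsin2 and did not for Cav2 and Cavin2.

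Vessel subtypes were read from short lists, each with 4 to 6 genes tested. The median log2 difference was 1.87 for lymphatic, 1.04 for arterial, 1.05 for venous and 0.81 for angiogenic markers. Every tested gene of the 4 lists was above 0, as were 53.7% of all genes tested. DESeq2 called 1 lymphatic gene, Mmrn1, and 2 arterial genes, Gja4 and Fbln5, where it called 3.57% of all genes as higher. Mmrn1, a secreted protein of lymphatic endothelium and platelets, stood at 0.249, 1.23 and 2.54 CPM in hyperoxia and at 0, 0.0942 and 0.155 CPM in normoxia. Gja4, the arterial gap junction protein connexin 37, stood at 0.612, 4.23 and 3.53 CPM in hyperoxia and at 0.0669, 0.165 and 0.284 CPM in normoxia, a log2 difference of 3.99 ± 0.77 (SE; adjusted p = 0.117 in edgeR). The most abundant arterial and venous markers overlapped between groups. Bmx, a kinase that neutrophils also make, stood at 11.7, 40.6 and 5.87 CPM in hyperoxia and at 13.1, 6.66 and 7.70 CPM in normoxia. Selp, the gene of P-selectin from platelets and venous endothelium, stood at 29.3, 42.6 and 16.2 CPM in hyperoxia and at 32.2, 17.4 and 27.4 CPM in normoxia.

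Markers of other cells that the sort should leave out also had higher mean levels in hyperoxia. Of 11 stromal genes 10 were tested, and all 10 had log2 differences above 0, as 53.7% of all genes tested did. Their median was 2.34, and DESeq2 called 8, against 3.57% of all genes as higher. The sum of the 11 was 38.4, 238 and 278 CPM in hyperoxia and 22.9, 23.5 and 64.1 CPM in normoxia, so that hyperoxia replicate 1 lay below normoxia replicate 3. Of 10 pericyte genes 6 were tested, and the sum of the 10 was 5.46, 19.1 and 13.2 CPM in hyperoxia and 3.08, 4.73 and 3.70 CPM in normoxia, without overlap. DESeq2 called 1 of the 6, Rgs5, where it called 3.57% of all genes as higher, and it gave Notch3 no adjusted p. The groups overlapped for Kcnj8 and Cox4i2, which with Rgs5 had the highest levels of the list. Kcnj8 stood at 1.22, 4.76 and 2.75 CPM in hyperoxia and at 1.45, 3.06 and 1.58 CPM in normoxia. Rgs5, a signalling regulator that marks pericytes, stood at 1.2, 7.94 and 5.0 CPM in hyperoxia and at 0.0223, 0.141 and 0.207 CPM in normoxia, a log2 difference of 5.23 ± 0.83 (SE; adjusted p = 0.0974 in edgeR).

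Smooth muscle markers summed to 21.9, 52.5 and 34.7 CPM in hyperoxia and to 17.3, 16.6 and 22.4 CPM in normoxia, and overlapped. Of 8 smooth muscle genes 6 were tested, and all 6 had log2 differences above 0, as 53.7% of all genes tested did. Their median was 1.73, and DESeq2 called 3, against 3.57% of all genes as higher. Macrophage markers summed to 1710, 2910 and 3210 CPM in hyperoxia and to 1440, 1520 and 1420 CPM in normoxia, with 8 of 12 genes called higher by DESeq2, which called 3.57% of all genes so. Apoe, the most abundant of the list, stood at 747, 1710 and 1660 CPM in hyperoxia and at 526, 623 and 525 CPM in normoxia. Cd68 and Csf1r, next in level, had log2 differences of 0.06 and -0.01, and their groups overlapped. Hyperoxia replicate 1 was the lowest hyperoxia library of the endothelial, stromal, pericyte, smooth muscle and macrophage sums alike. T cell markers summed to 3.87, 8.20 and 16.3 CPM in hyperoxia and to 2.41, 2.31 and 4.60 CPM in normoxia, and B cell markers to 1.77, 7.63 and 6.56 CPM in hyperoxia and to 1.27, 2.02 and 2.46 CPM in normoxia. T and B cell sums overlapped between groups, and the macrophage sums did not. All 6 T cell and all 4 B cell genes had log2 differences above 0, as 53.7% of all genes tested did. The medians were 2.04 for T cell and 1.47 for B cell genes. DESeq2 called 2 T cell and 0 B cell genes, against 3.57% of all genes as higher. The part of these cell types in the endothelial values was not tested.

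Other marker lists did not separate the groups. Epithelial markers summed to 269, 19.3 and 256 CPM in hyperoxia and to 102, 179 and 237 CPM in normoxia, and were lowest in hyperoxia replicate 2, where 8 of the 10 endothelial genes were highest. Erythroid markers summed to 104, 167 and 860 CPM in hyperoxia and to 55.2, 77.6 and 733 CPM in normoxia. Neutrophil markers summed to 65300, 110000 and 43800 CPM in hyperoxia and to 59700, 45800 and 56400 CPM in normoxia. The median log2 difference of the 10 neutrophil markers was 0.23. DESeq2 called 0 of the 10, where it called 3.57% of all genes as higher and 0.403% as lower. edgeR also called 0 of the 10. Under an unadjusted p of 0.05 it had 0, against 9.1% of all genes as higher and 3.91% as lower.

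**Figure D4:**
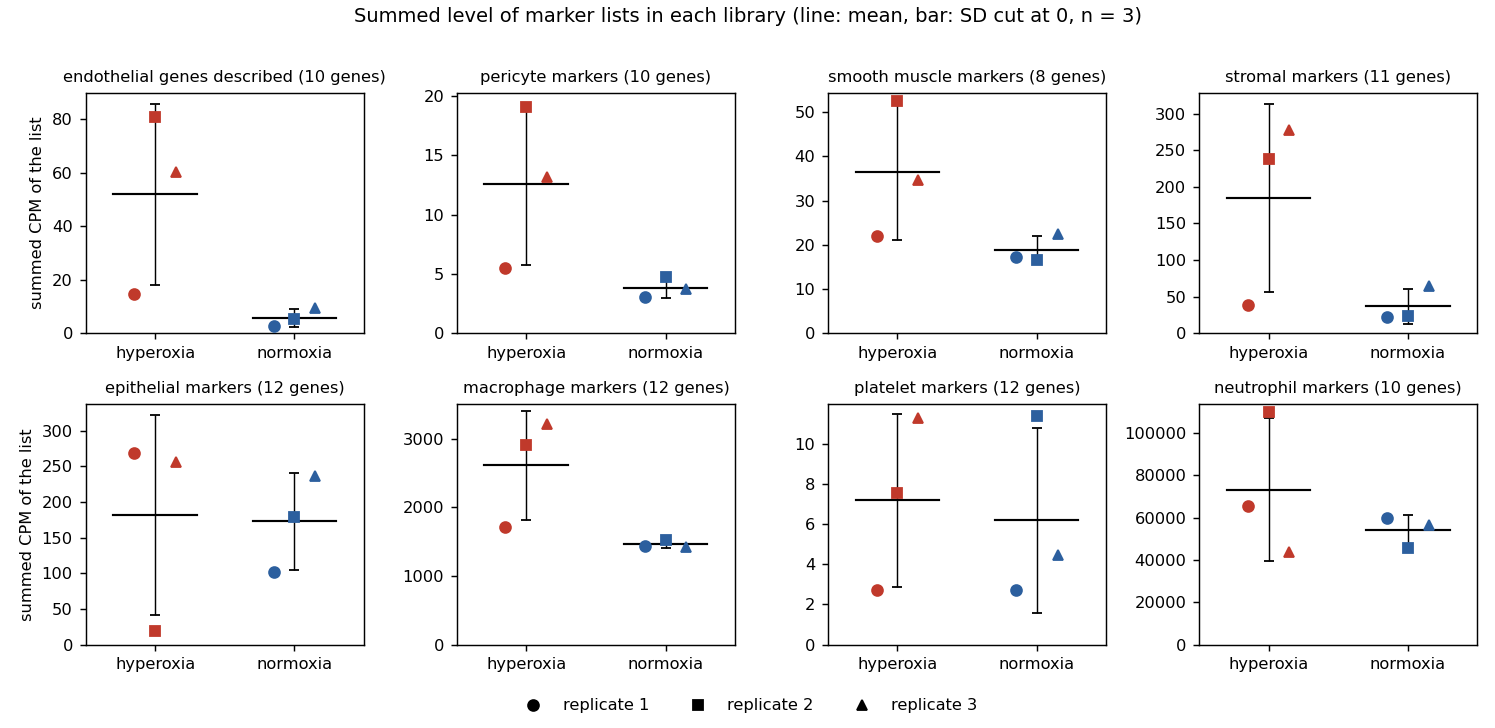
Summed level in CPM (linear axes from 0) of marker lists in each library, hyperoxia left and normoxia right, 1 symbol per replicate, with the mean (line) and SD (bar, n = 3). The sums of the 10 endothelial genes, the pericyte list and the macrophage list do not overlap between groups, while those of the other lists shown do.

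Genes whose profile over the 6 libraries lay nearest to the mean profile of the 10 were found by the root mean square distance of centred log2 CPM. The nearest gene outside the 10 was Tmem100 at a distance of 0.20, then Sparcl1 at 0.29, Fabp4 at 0.31 and Ackr3, Ppic and Gpihbp1 at 0.32. Col18a1 at 0.33, Ctla2a at 0.35 and Scarf1 and Htra1 at 0.36 completed the nearest 10, and the median over all genes tested was 1.66. Among the 10 themselves Egfl7 was nearest to their mean at 0.17 and Vwf furthest at 1.09. Each of the 10 is part of that mean, and they were picked from this contrast, so the distances are a description only. Fabp4, the fatty acid binding protein of capillary endothelium, fat and macrophages, stood at 3.47, 11.4 and 18.6 CPM in hyperoxia and at 0.825, 1.37 and 2.35 CPM in normoxia. Gpihbp1, which carries lipoprotein lipase across capillary endothelium, stood at 0.793, 2.56 and 2.63 CPM in hyperoxia and at 0.156, 0.353 and 0.465 CPM in normoxia.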

How the data were processed

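RNA was measured in 6 libraries of sorted uterine neutrophils. Per the labels' protocols, an RNeasy Micro Kit and an Ovation/NexteraXT kit were used. The authors deposited raw counts per gene as whole numbers, 1 table per library with 43432 Ensembl IDs and no normalization. Per the submitters' processing notes, STAR 2.4.2a, DESeq2 1.16.1 and the build GRCm38 are named, in roles that are not stated. How reads were counted, with which strand setting and annotation, is not given in the sources used here. GENCODE M21 matched 42548 IDs, and at most 0.25% of the counts of any library fell on the other 884.

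Counts were divided by library totals for CPM and by exon union length for RPKM. They were tested with edgeR 4.0.16 in R 4.3.3, two-sided, after filterByExpr, TMM scaling and a robust quasi-likelihood fit, with Benjamini-Hochberg adjustment over the 12908 genes tested, called at 0.05. Standard errors came from the log2 difference divided by the square root of F. Alternatives were DESeq2 1.42.0, limma 3.58.1 (voom alone or with quality weights per sample), other scalings, other filters and leaving out each library. DESeq2 gave no adjusted p for 270 of the genes tested, which count as not called. The fits were tested on simulated data.

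The members and gene lists were chosen with earlier results of these data known. All 10 members are named. In each other list the genes with the highest mean CPM and those with the lowest unadjusted p were eligible, as were the 10 genes nearest in profile; Gp6, Ecscr, Agpat2 and Mir126a were named after their values were seen. Replicates were numbered in deposition order, so a number pairs no samples. Where p-values are given they weigh the group difference against the spread between libraries, estimated with information shared across genes. That spread need not be one between animals, since separate mice are not stated. Intervals cover counting error only. Promoter and microRNA sequences are from RefSeq (GRCm38.p6), in which 6 of the 10 members had a promoter. Part of the genotype shared by all mice is not reported here.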

Additional observations from a re-analysis of the deposited data

How the results depend on the processing

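The number of calls depended on the test. DESeq2 called 461 genes higher and 52 lower, 8 of the 10 endothelial genes and 11 of the further endothelial genes. limma-voom with sample quality weights called 35 genes higher and 1 lower, with 2 of the 10 among them (Tek and Cav1). With no filter on low counts edgeR called 205 higher and 9 lower, with 2 of the 10 (Tek and Cav1) and 2 of the further endothelial genes. The cause was not tested. Leaving out 1 library at a time gave 0 to 164 genes called higher and 0 to 12 lower, 0 to 3 of the 10 genes, and 0 to 4 of the further genes, with the highest of each without hyperoxia replicate 1. The median log2 difference of the 10 genes lay between 2.90 and 4.09 in those fits, and that of the further genes between 1.44 and 2.71. All 10 genes kept log2 differences above 0 in all 14 alternatives. The median log2 difference of all genes tested was 0.109 with no filter, 0.121 without normoxia replicate 1 and 0.111 without normoxia replicate 3, and under 0.1 in the other alternatives. Counts at or under 3 in normoxia limit Tek, Cdh5 and Kdr. No paired analysis was possible because the titles carry no replicate numbers that the groups share.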
